A study of Zea mays with 16 samples.

Results

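Glycine-rich protein 3 (grp3) and hydroxyproline-rich glycoprotein (HRGP) are genes of structural proteins of the maize root cell wall. They were followed through waterlogging and drainage with 5 of the 17734 probe sets (groups of short probes for 1 transcript) of the Affymetrix maize array. The members were all probe sets whose symbol or RefSeq synonym was grp3 or HRGP. grp3 had 1 probe set. The annotation of the array gave HRGP 2 probe sets, called here HRGP-A and HRGP-Ax. A gene-model table of the study placed 2 more, called here HRGP-Ma and HRGP-Mx, on the gene model that RefSeq lists under the same HRGP gene. RefSeq has 2 genes with the synonym HRGP, and all 4 HRGP probe sets were placed on the same gene of the 2. The gene-model table covers only probe sets that the study called changed. Its assignment of probes to the gene was not checked here, since no probe sequences were used. The genes were chosen by earlier results of these data, namely their levels at each stage against the control of the same line and the difference between the controls of both lines. Those differences are therefore given as a description, with no test.

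Root RNA came from 2 inbred lines, HKI1105, which tolerates waterlogging, and V-372, which does not, grown in pots and without any added agent or transgene. Each line was sampled on day 28 after sowing without treatment (control), on day 32 after 4 days of waterlogging (moderate stress), on day 35 after 7 days (severe stress) and on day 42 after drainage (recovery). Each of the 8 groups had 2 arrays, 16 in all. The labels imply drainage on day 35, but another description of the experiment places the opening of the pots on day 42, so how long the recovery roots had been drained is not settled. Control roots were taken on day 28 alone, so the effects of stage and of plant age cannot be told apart. Each line is 1 genotype, so tolerance and any other property of the line cannot be told apart either. Replicate arrays are biological by the labels and technical by the methods, and p-values measure only the spread between these arrays.

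Values are log2 GCRMA levels, a summary of the probes after background correction, in which a transcript below background sits at a floor. The lowest value was 2.01, and a value was counted as above the floor when it exceeded 3.01, 1 log2 unit higher. Levels are compared for 1 probe set at a time, because different probe sets bind their targets with different strength. The HKI1105 control arrays stood apart from the others. Their array medians were 6.92 and 6.98, against 7.07 to 7.18 elsewhere, and their 36 poly-A spike probe sets, RNAs added during labelling, had a median deviation of 2.44 log2 units from their median over all arrays, against -0.77 to 0.273 in the other groups. Arrays of 1 group correlated at 0.9956 (HKI1105 control) to 0.9991. IIG1, a gene induced in maize roots by physical impedance and used here as the root cortex marker, was above the floor in every group on at least 3 of its 6 probe sets. Leaf genes of the C4 cycle and of light harvesting were also above the floor in the root samples. In bulk tissue, fewer cells of a type and less RNA per cell cannot be told apart.

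In plants, glycine-rich proteins and hydroxyproline-rich glycoproteins (the extensin family) are secreted into the wall, where they form networks with cellulose and other polysaccharides. Extensins become insoluble when peroxidases cross-link their tyrosines, which stiffens the wall. Maize grp3 is known as a gene expressed in roots, and maize HRGP is known to respond to wounding and ethylene and to be expressed in young and vascular tissue. Ethylene accumulates in waterlogged roots, where it takes part in forming air spaces in the cortex.

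grp3 was near the floor in control roots of HKI1105 and among the strong signals of every other group. Its arrays read 3.29 and 2.58 in the HKI1105 control (2.94 ± 0.50, SD, n = 2), so 1 of them was above the floor limit. They read 11.56 and 11.46 at moderate stress (11.51 ± 0.08), 11.12 and 11.21 at severe stress (11.17 ± 0.06), and 11.38 and 11.31 at recovery (11.34 ± 0.05). All 6 later arrays of HKI1105 thus lay within a narrow band, far above both control arrays. The difference from the control was 8.57 log2 units at moderate stress, 8.23 at severe stress and 8.40 at recovery. With every value below 3.01 raised to that limit, the moderate stress level was at least 329-fold the control level.

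In V-372, grp3 ran the other way. The control arrays read 12.84 and 12.77 (12.81 ± 0.05), the highest of all groups. The signal was lower at each later stage, with 12.31 and 12.24 at moderate stress (12.28 ± 0.05), 11.45 and 11.61 at severe stress (11.53 ± 0.11), and 10.44 and 10.50 at recovery (10.47 ± 0.04). No 2 groups of V-372 overlapped. The difference from the control was -0.53, -1.28 and -2.33 log2 units at the 3 stages. HKI1105 was 9.87 log2 units below V-372 in the controls, 0.77 and 0.36 below it at moderate and severe stress, and 0.87 above it at recovery. Over all 8 groups the order ran from V-372 control to HKI1105 control, and the only neighbours whose arrays overlapped were V-372 severe stress and HKI1105 moderate stress.

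**Figure D1:**
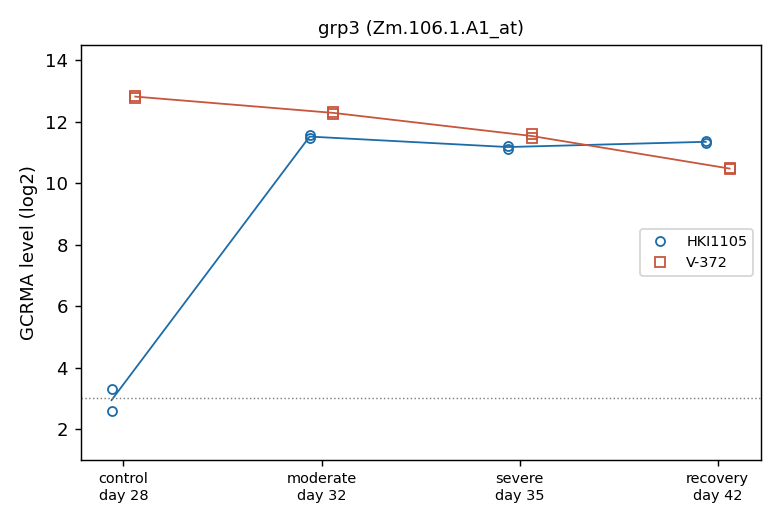
grp3 levels (log2, vertical axis) on each array at the 4 stages (horizontal axis), circles for HKI1105 and squares for V-372, with lines through the means of the 2 arrays and a dotted line at 3.01, the floor limit. The HKI1105 line rises from 2.94 in the control to 11.51 at moderate stress and stays there, while the V-372 line descends from 12.81 to 10.47.

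The 4 HRGP probe sets gave 3 different pictures of the lines. The pair named by the array annotation, HRGP-A and HRGP-Ax, was silent in HKI1105 and strong in V-372. HRGP-Ma was silent in V-372 and strong in HKI1105 once waterlogged. HRGP-Mx was measured in both lines, and was silent only in the HKI1105 control. The x in HRGP-Ax and HRGP-Mx stands for the Affymetrix ending of probes that may also bind other sequences, and the a in HRGP-Ma for that of probes shared by transcripts of 1 gene. The full Affymetrix identifiers head the panels of the plot of HRGP levels.

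HRGP-A stayed at the floor on all 8 HKI1105 arrays, between 2.01 and 2.10. In V-372 its arrays read 12.59 and 12.48 in the control (12.53 ± 0.07), 11.99 and 12.07 at moderate stress (12.03 ± 0.05), 12.68 and 12.64 at severe stress (12.66 ± 0.03), and 11.13 and 11.14 at recovery (11.14 ± 0.01). The line difference held at every stage, HKI1105 being lower by 10.46 log2 units in the control, 10.65 at severe stress and 9.13 at recovery. In the controls, V-372 was at least 738-fold higher with the floor raised to 3.01.

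Its partner HRGP-Ax lay between 2.02 and 2.79 in HKI1105, under the floor limit on every array. In V-372 it read 12.31 and 12.22 in the control (12.27 ± 0.06), 11.65 and 11.87 at moderate stress (11.76 ± 0.16), 12.36 and 12.39 at severe stress (12.37 ± 0.02), and 10.40 and 10.75 at recovery (10.58 ± 0.24). Both probe sets of the pair therefore ordered the V-372 groups alike, from severe stress through control and moderate stress to recovery, with no overlap between neighbours. Against the control, HRGP-A differed by -0.50, 0.13 and -1.40 at the successive stages (log2), and HRGP-Ax by -0.51, 0.10 and -1.69.

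HRGP-Ma was at the floor in the HKI1105 control, with 2.08 and 2.09. Its arrays then read 10.99 and 11.32 at moderate stress (11.16 ± 0.23), 10.25 and 10.22 at severe stress (10.24 ± 0.03), and 10.59 and 10.60 at recovery (10.59 ± 0.01). On the 8 arrays of V-372 it stayed between 2.01 and 2.08. From moderate stress to recovery, HKI1105 lay 9.08, 8.15 and 8.51 log2 units above its control, and the first difference is at least 284-fold with the floor raised.

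HRGP-Mx read 2.77 on both HKI1105 control arrays, then 10.39 and 10.45 at moderate stress (10.42 ± 0.05), 9.39 and 9.41 at severe stress (9.40 ± 0.01), and 9.64 and 9.59 at recovery (9.61 ± 0.03). In V-372 it read 10.65 and 10.47 in the control (10.56 ± 0.13), 10.12 and 10.17 at moderate stress (10.15 ± 0.03), 7.37 and 7.92 at severe stress (7.65 ± 0.39), and 8.63 and 9.19 at recovery (8.91 ± 0.39). This probe set resembled grp3 in its low HKI1105 control and in its high V-372 control. Against the control of the same line, it differed by 7.65, 6.63 and 6.84 log2 units in HKI1105, the first being at least 171-fold, and by -0.41, -2.91 and -1.65 in V-372. HKI1105 was 7.78 log2 units below V-372 in the controls and 0.27, 1.75 and 0.70 above it afterwards.

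**Figure D2:**
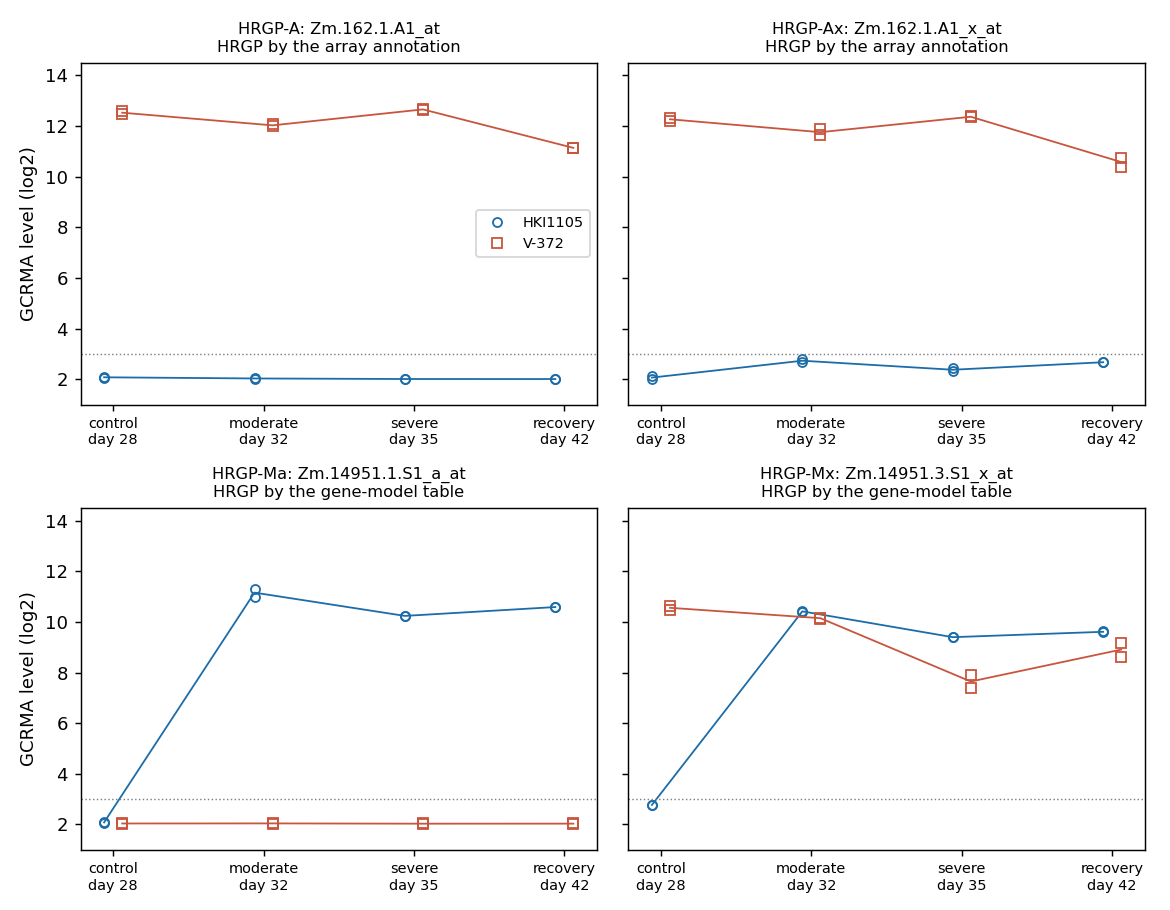
Levels (log2, vertical axis) of the 4 HRGP probe sets on each array at the 4 stages (horizontal axis), circles for HKI1105 and squares for V-372, with lines through the means of the 2 arrays and a dotted line at 3.01, the floor limit. The pair in the upper row is at the floor in HKI1105 throughout, HRGP-Ma at the lower left is at the floor in V-372 throughout, and HRGP-Mx at the lower right is under the limit in the HKI1105 control alone.

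These patterns were uncommon on the array. Only 4 of the 17734 probe sets (0.0226%) were under the floor limit on all 8 arrays of HKI1105 and over 8 on all 8 arrays of V-372, and 2 of the 4 were the annotated HRGP pair. The reverse pattern was met by 13 probe sets (0.0733%), none of them a member. The pattern of HRGP-Ma, silent in V-372 and in the HKI1105 control and over 8 on the other 6 HKI1105 arrays, was shared by 3 probe sets (0.0169%). A level of at most 4.01 on both HKI1105 control arrays with over 7 on the other 14 arrays was found for 17 probe sets (0.0959%), among them grp3 and HRGP-Mx. Of the 1108 annotated genes, 222 had more than 1 probe set, and HRGP was the 1 gene with a probe set silent in HKI1105 and high in V-372. The patterns were written down from the members' own values, so the counts describe the array and are no test. The annotated HRGP pair in HKI1105 and HRGP-Ma in V-372 were silent on all 8 arrays of that line. There, a sequence difference between the lines under the probes and a difference in transcript level cannot be told apart in these data. Probes of grp3, HRGP-Ma and HRGP-Mx gave signals over 7 in HKI1105, outside its control. Whether the lines differ in sequence under these probes was not tested.

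Which of the levels moved between successive stages was asked next, without the control arrays in the contrast. A model with 1 mean per group was fitted with limma to all probe sets, with p-values adjusted over all of them by the Benjamini-Hochberg method and a threshold of 0.05. Only members above the floor in the line concerned are counted. Shares over all probe sets also include those at the floor. These contrasts share the stress and recovery arrays with the differences by which the genes were chosen, so they are not wholly independent of that choice.

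From moderate to severe stress in HKI1105, both measured HRGP probe sets fell, and 31.2% of all probe sets were called. Of the probe sets above the floor at this step, 25.1% were called up and 19.7% down. HRGP-Ma changed by -0.92 ± 0.0851 log2 units (SE, limma adjusted p = 4.98e-05). HRGP-Mx changed by -1.02 ± 0.197 (limma adjusted p = 0.00387). Both probe sets thus lost a similar share of their moderate stress level. For grp3 the difference of -0.34 ± 0.183 missed the threshold (limma adjusted p = 0.22; 95% interval -0.76 to 0.07). The error of grp3 carried the spread between the 2 HKI1105 control arrays, and without those arrays the same difference passed (limma adjusted p = 0.00494).

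From severe stress to recovery in HKI1105, 1 of 3 measured members was called, where 30.9% of all probe sets were. Among probe sets above the floor, 23.3% were called up and 21.2% down. HRGP-Ma rose by 0.36 ± 0.0851 (limma adjusted p = 0.0118). This call was lost without HKI1105 recovery replicate 1, recovery replicate 2 or severe stress replicate 2 (limma adjusted p = 0.0528, 0.0563 and 0.0671). The differences of grp3 (0.17 ± 0.183, limma adjusted p = 0.66) and HRGP-Mx (0.21 ± 0.197, limma adjusted p = 0.579) did not pass. Their 95% intervals were -0.24 to 0.59 and -0.24 to 0.66. In a fit of the HKI1105 arrays alone the calls turned, HRGP-Mx passing (limma adjusted p = 0.00915) and HRGP-Ma missing the threshold (limma adjusted p = 0.0936).

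From moderate to severe stress in V-372, all 4 measured members were called, where 45.8% of all probe sets were, and the HRGP probe sets moved in opposite directions. Among probe sets above the floor, 24.8% were called up and 39.7% down, so a call was common. HRGP-A rose by 0.63 ± 0.0368 (limma adjusted p = 8.56e-07) and HRGP-Ax by 0.61 ± 0.113 (limma adjusted p = 0.00173). HRGP-Mx changed by -2.50 ± 0.197 (limma adjusted p = 6.42e-06), the largest stepwise change of any member. grp3 changed by -0.75 ± 0.183 (limma adjusted p = 0.00832), a call that was lost without V-372 severe stress replicate 1 (limma adjusted p = 0.0543).

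At recovery in V-372 each measured HRGP probe set turned back, and grp3 did not. The steps before and after severe stress share its 2 arrays with opposite sign. A deviation of those arrays alone would give such a turn. Again all 4 measured members were called, where 49.4% of all probe sets were. Of the probe sets above the floor, 40.5% were called up and 28.8% down. HRGP-A changed by -1.53 ± 0.0368 (limma adjusted p = 3.65e-09) and HRGP-Ax by -1.80 ± 0.113 (limma adjusted p = 1.37e-06). HRGP-Mx rose by 1.26 ± 0.197 (limma adjusted p = 0.000535). grp3 changed by -1.06 ± 0.183 (limma adjusted p = 0.00102), which left the recovered V-372 roots with the lowest grp3 level of that line.

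The disagreement inside HRGP can be read on each array as HRGP-A minus HRGP-Mx. In V-372 this value was 3.13 log2 units greater at severe than at moderate stress, and changed by -2.79 from severe stress to recovery. With HRGP-Ax in place of HRGP-A the figures were 3.11 and -3.06. Both differences use the same severe stress arrays, so they are not separate observations. An exact two-sided permutation test of 2 arrays against 2 cannot go below p = 0.333, the value it gave each time.

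**Figure D3:**
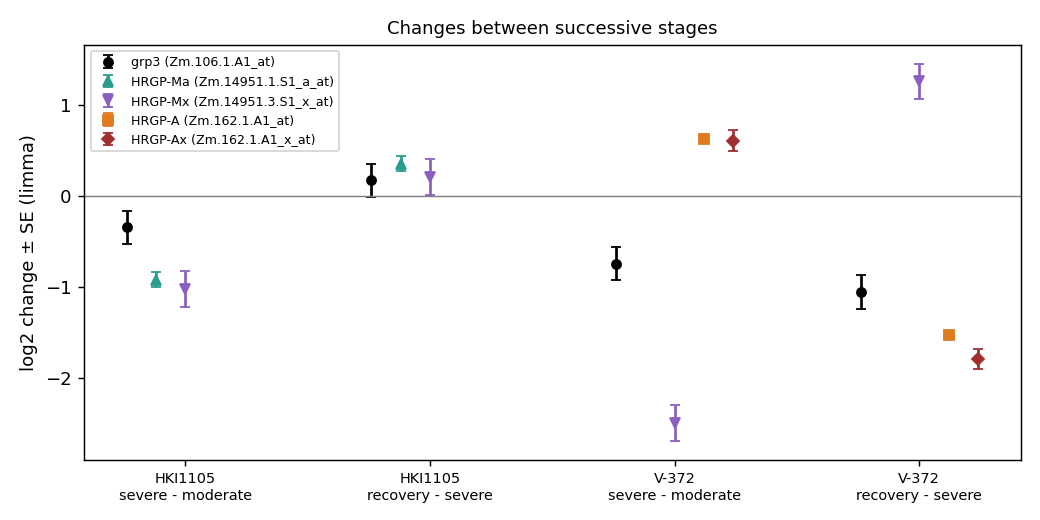
Change between successive stages (log2, vertical axis; points are limma estimates, bars 1 SE) for each member above the floor in that line, in 4 contrasts (horizontal axis). In V-372 the annotated HRGP pair lies above 0 from moderate to severe stress and below 0 at recovery, the reverse of HRGP-Mx, while grp3 lies below 0 in both.

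The 2 members measured in both lines allowed a test of whether the lines differed in these steps. Between moderate and severe stress, the change of HRGP-Mx was 1.48 ± 0.278 log2 units higher in HKI1105 than in V-372 (limma adjusted p = 0.00227), where 42.1% of all probe sets were called. For grp3 the difference between the lines was 0.40 ± 0.259 (limma adjusted p = 0.284; 95% interval -0.19 to 1.0), which passed without the HKI1105 control arrays (limma adjusted p = 0.00851). At recovery both differed, where 40.8% of all probe sets were called. The grp3 change was 1.23 ± 0.259 higher in HKI1105 (limma adjusted p = 0.00445), with a fall in V-372 and a difference of 0.17 in HKI1105 that did not pass. The HRGP-Mx change was -1.05 ± 0.278 relative to V-372 (limma adjusted p = 0.0147), with 1.26 in V-372 against 0.21 in HKI1105.

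Genes with profiles most like each member were ranked by Pearson's r over the 8 group means, among 5459 probe sets whose means span more than 2 log2 units. The 8 means share arrays with every other gene, so r is a description with no p. For grp3 and HRGP-Mx the HKI1105 control lay far below every other mean, so a high r mainly reflects a low value there. That low control was among the differences by which the genes were chosen. For grp3 the closest named genes were pcna2 (r = 0.973), the sliding clamp of DNA replication, RP-P0 (0.969), a ribosomal stalk protein, tip2b (0.962), a tonoplast aquaporin, gst41 (0.96), a glutathione transferase, and por2 (0.96). tip2b, for example, read 4.54 in the HKI1105 control, 12.98 at moderate stress and 12.07 at recovery, and 12.48 in the V-372 control against 9.85 at recovery. RP-P0 read 8.97 in the HKI1105 control but did not share the steady fall of grp3 in V-372. Its V-372 means were 10.94 in the control, 11.32 at moderate stress, 11 at severe stress and 10.81 at recovery. In the ranking for grp3, HRGP-Mx stood at rank 50 of the 5459 probe sets (r = 0.95). HRGP-Mx in turn had grp3 at rank 23. Its own closest named genes were Agp2 (0.964), pip1b (0.963), a plasma membrane aquaporin, MCM6 (0.957), a subunit of the replicative helicase, por2 (0.953) and tip2b (0.949), so por2 and tip2b stood near both members.

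Among named genes HRGP-Ma was closest to PER66 (r = 0.978), a class III peroxidase, at rank 23 of the 5459 probe sets. Next came his2b5 (0.962), a histone H2B, BCH2 (0.913), a carotene hydroxylase, AGA2 (0.891) and AGA1 (0.888). PER66 was likewise at the floor in V-372, at 2.01 to 2.10, and in the HKI1105 control. Such shared floor values raise r by themselves. Its HKI1105 arrays read 9.73 and 10.32 at moderate stress, 6.80 and 6.63 at severe stress, and 8.20 and 8.42 at recovery. PER66 fell by 3.31 ± 0.161 log2 units from moderate to severe stress (limma adjusted p = 1.02e-06) and rose by 1.59 ± 0.161 at recovery (limma adjusted p = 9.55e-05), the same directions as HRGP-Ma with wider steps. PER66 was picked for its likeness to HRGP-Ma over these same groups. The shared directions are largely built into that choice and are no further support for the HRGP-Ma changes.

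The annotated HRGP pair correlated with each other at r = 0.999. The closest named genes to HRGP-A were PPO (0.963), IDP3803 (0.956), 2 probe sets of PRP (0.871 and 0.862) and NIT2 (0.862), a nitrilase. For HRGP-Ax the order was PPO (0.951), IDP3803 (0.947), PRP (0.851), NIT2 (0.849) and RPS21 (0.845), a ribosomal protein. PPO was higher in V-372 (5.80 to 6.64 over 8 arrays) than in HKI1105 (2.57 to 4.36), as in the HRGP pair but across a smaller gap. Between HRGP probe sets of different kinds r was low or negative, -0.775 for HRGP-Ma with HRGP-A, 0.366 for HRGP-Ma with HRGP-Mx, and 0.259 for HRGP-Mx with HRGP-A.

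**Figure D4:**
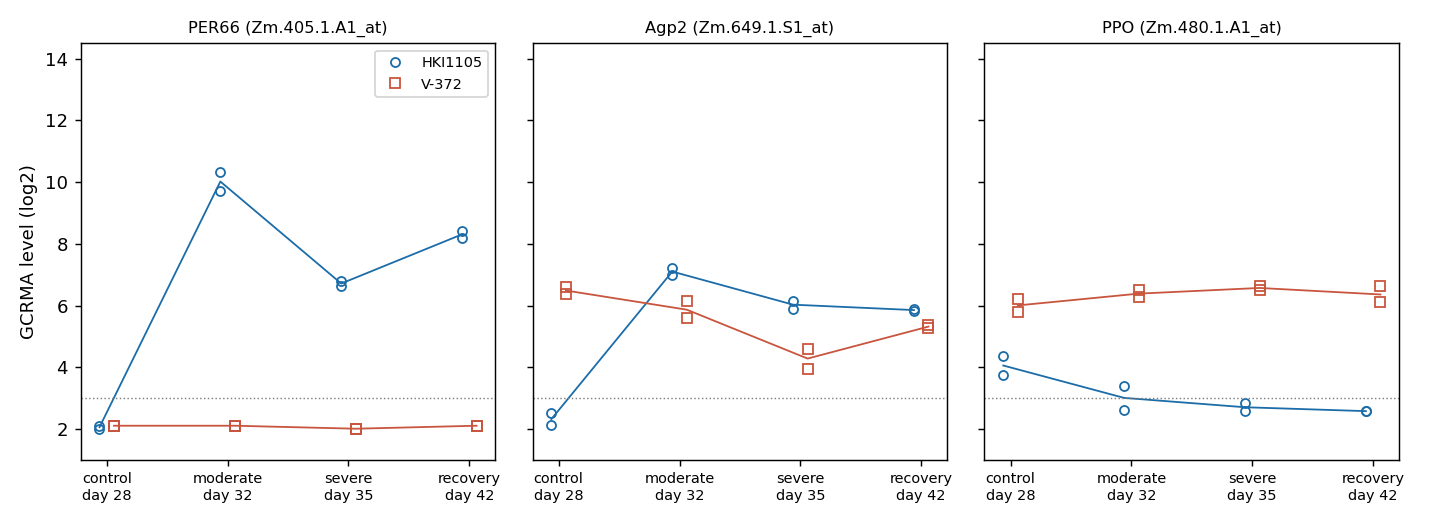
Levels (log2, vertical axis) of PER66, Agp2 and PPO, the named genes closest in profile to HRGP-Ma, HRGP-Mx and HRGP-A, on each array at the 4 stages (horizontal axis), circles for HKI1105 and squares for V-372, with a dotted line at 3.01, the floor limit. PER66 is at the floor in V-372, Agp2 is under the limit in the HKI1105 control alone, and PPO is higher in V-372 at every stage.

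Other genes named GRP were read by 4 probe sets, 2 at the floor and 2 near the top of the scale, where a change would be hard to see. The symbols do not say which of them encode wall proteins and which RNA-binding ones. One grp1 probe set read 14.74 to 15.07 over the 16 arrays, and GRP 14.07 to 14.38. The second grp1 probe set and GRP5 stayed at the floor, at 2.01 to 2.06. Of the 4 probe sets, 1 was called in each of the 4 stage contrasts, in V-372 from moderate to severe stress the grp1 probe set at the floor. Over all probe sets, 31.2% and 30.9% were called at the successive steps in HKI1105, and 45.8% and 49.4% in V-372. The count thus does not set these genes apart from the array. The GRP change in HKI1105 from moderate to severe stress was -0.21 ± 0.0325 (limma adjusted p = 0.00112), beside -0.34 ± 0.183 for grp3 at the same step, which did not pass (limma adjusted p = 0.22). Without both HKI1105 control arrays that grp3 difference passed (limma adjusted p = 0.00494).

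The counts of other wall genes that follow can be read against the whole array. From moderate to severe stress 17.4% of all probe sets rose and 13.8% fell in HKI1105, against 17.7% up and 28.1% down in V-372. From severe stress to recovery 16.2% rose and 14.7% fell in HKI1105, against 28.8% up and 20.6% down in V-372. The array as a whole thus leaned down in V-372 at the first step and up at the second. These shares include probe sets at the floor. Among probe sets above the floor, the first step had 25.1% up and 19.7% down in HKI1105, and 24.8% and 39.7% in V-372. At recovery the shares were 23.3% up and 21.2% down in HKI1105, and 40.5% and 28.8% in V-372. The cellulose synthases below, all above the floor, are to be read against this second set.

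Among the 4 class III peroxidase genes, 3 rose and 1 fell in HKI1105 from moderate to severe stress (median 1.13), against 0 up and 3 down in V-372 (median -1.13), where PER66 was at the floor. The median of all probe sets was 0 in each contrast. The largest rise in HKI1105 was that of PER2, by 2.29 ± 0.109 log2 units (limma adjusted p = 9.2e-07), and in V-372 PER2 changed by -1.68 ± 0.109 (limma adjusted p = 1.76e-06). At recovery the counts were 2 up and 2 down in HKI1105 (median 0.0191), and 2 up and 1 down in V-372 (median 0.916). PER2 then rose by 6.89 ± 0.109 in V-372 (limma adjusted p = 2.68e-10).

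Expansins, which loosen walls, were read by 17 probe sets of 12 genes. In HKI1105 0 rose and 10 fell from moderate to severe stress (median -0.991), then 0 rose and 6 fell at recovery (median -0.38). In V-372 3 rose and 9 fell (median -0.41), then 0 rose and 12 fell (median -2.76). In V-372, 1 of the 3 rises and 1 of the 12 falls were of probe sets under the floor limit. Called changes from moderate to severe stress ran from -3.84 ± 0.346 for expA3 in HKI1105 (limma adjusted p = 4.29e-05) to 1.36 ± 0.364 for expA4 in V-372 (limma adjusted p = 0.0131).

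Cellulose synthases, which make the main wall polysaccharide, were read by 13 probe sets of 12 genes, all above the floor. Their mean over the 13 was 10.6 to 10.7 on the HKI1105 control arrays, 11.8 at moderate stress and 11.2 at severe stress. At recovery in HKI1105 it was 10.4. In V-372 it was lower than the control at each later stage, with 11.5 to 11.6, 10.6, 9.3 to 9.41 and 10 to 10.1. From moderate to severe stress in HKI1105 0 rose and 9 fell (median -0.524), then 0 rose and 12 fell at recovery (median -0.825). In V-372 0 rose and 11 fell (median -1.33), with cesa11 at -2.06 ± 0.119 (limma adjusted p = 8.11e-07), and then 8 rose and 2 fell at recovery (median 0.576). The smallest called change from moderate to severe stress was that of CesA-9 in HKI1105, -0.32 ± 0.0319 (limma adjusted p = 7.96e-05). The xyloglucan endotransglycosylase xet1, which cuts and rejoins wall xyloglucan, changed by -0.59 ± 0.0705 in HKI1105 (limma adjusted p = 0.000245) and by -1.38 ± 0.0705 in V-372 (limma adjusted p = 3.55e-07).

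Markers of other tissue moved between the same groups, and their part in the grp3 and HRGP results was not tested. The mean over the 14 probe sets of leaf C4 and light harvesting genes was 6.48 to 6.56 on the HKI1105 control arrays, 9.08 to 9.15 at moderate stress, 8.38 at severe stress and 5.26 to 5.31 at recovery. In V-372 it was 4.89 to 4.95, 7.53 to 7.63, 9.36 to 9.40 and 6.93. Between 3 and 7 of the 14 were under the floor limit in a group. In V-372 9 of the 14 rose and 0 fell from moderate to severe stress (median 1.88), with pep1, the C4 carboxylase, up by 8.46 ± 0.293 (limma adjusted p = 2.91e-08). In HKI1105 0 rose and 7 fell (median -0.444), with Cab-m7 at -1.86 ± 0.065 (limma adjusted p = 1.44e-07). Over the probe sets above the floor at this step the medians were 2.06 in V-372 and -1.2 in HKI1105.

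The root cortex gene IIG1 was lower in the HKI1105 control than at moderate stress on 5 of its 6 probe sets, whose control means were 2.22 to 4.87. The remaining probe set went the other way, with 11.84 in the HKI1105 control, 9.10 at moderate stress and 10.73 at recovery. The 6 probe sets together averaged 4.57 to 4.66 there, with 3 under the floor limit, then 11.3 to 11.4 at moderate stress, 9.40 to 9.57 at severe stress and 6.66 to 6.68 at recovery. In V-372 they averaged 9.69 to 9.89, 9.77 to 10.1, 8.52 to 8.58 and 5.37 to 5.50. From moderate to severe stress 1 of its probe sets rose and 5 fell in HKI1105 (median -2.04), ranging from 1.02 ± 0.0729 for one probe set (limma adjusted p = 1.06e-05) to -3.46 ± 0.601 for another (limma adjusted p = 0.00221), with 1 up and 4 down in V-372 (median -1.45).

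Genes of the low oxygen response were read by 23 probe sets of 13 genes. In HKI1105 4 rose and 5 fell from moderate to severe stress (median 0), then 6 rose and 5 fell at recovery (median 0). In V-372 1 rose and 16 fell (median -1.53), then 9 rose and 3 fell (median 0.204). One of the falls in each line at the first step was of a probe set under the floor limit. In V-372 from moderate to severe stress, a probe set of PDC, pyruvate decarboxylase, which opens ethanol fermentation, changed by -7.66 ± 0.162 (limma adjusted p = 1.29e-09). At the same step sus2, a sucrose synthase, rose by 5.36 ± 0.176 (limma adjusted p = 2.08e-08). Every other PDC probe set changed less in V-372, by -5.36 at most. In HKI1105 the same PDC probe set changed by -1.27 ± 0.162 (limma adjusted p = 0.000369).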

How the data were processed

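The authors scanned Affymetrix arrays of root RNA and deposited log2 values made with GCRMA, which corrects background, normalises between arrays and summarises probes; its version was not given in the sources used here. These values were used without further scaling, and all 17734 probe sets were kept, 113 Affymetrix controls included. Since GCRMA scales arrays against each other, a shift of most transcripts would not be seen, and differences from a group at the floor depend on the background level.

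Genes were named from the array annotation (1453 probe sets, 1377 matched to RefSeq, assembly Zm-B73-REFERENCE-NAM-5.0, 1327 named) and, for 2 HRGP probe sets, from the study's gene-model table. One mean per group was fitted with limma 3.58.1 in R 4.3.3 (8 residual and 0.462 prior degrees of freedom, median residual SD 0.101), after the same code was tested on simulated data. Members, lists and tests were chosen with earlier results of these data known. Lists were matched by symbol or synonym. They were narrowed after the annotation was read, and AGP2 was left out of the wall proteins because its symbol is ambiguous. Besides the members and the genes named GRP, the text names the largest and smallest called change from moderate to severe stress in each list, and the 5 named genes most like each member. PER66, PER2 and tip2b values beyond that rule were chosen after they were seen. The alternatives were quantile normalization, median subtraction, a raised floor, dim probe sets left out, an intensity trend, fits within a line, arrays left out, the methods' threshold and a replicate block. Promoters, proteins and probe sequences were not analysed here. With 2 arrays per group, their number limits the precision of every value.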

Additional observations from a re-analysis of the deposited data

Results flagged for a closer look

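The response of the lines differed, by the interaction in limma, in 3 results. The change of HRGP-Mx from moderate to severe stress was 1.48 log2 units higher in HKI1105 than in V-372. It fell in both lines, further in V-372. The change of grp3 from severe stress to recovery was 1.23 log2 units higher in HKI1105. The change of HRGP-Mx over the same step was -1.05 in HKI1105 relative to V-372. Groups of 2 arrays were too small to look for single arrays far from their group.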

How the results depend on the processing

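The 18 tested results were repeated under other settings, and none changed direction. Of the 140 values from settings other than a single left-out array, 134 kept their side of the threshold, as did 280 of 288 with an array left out. For grp3 from moderate to severe stress in HKI1105, the change of -0.34 passed with the floor raised by 1 (limma adjusted p = 0.0217) and without both HKI1105 control arrays, a setting chosen after seeing the data (0.00494), and with an array left out it lay between -0.40 and -0.29. The matching difference between the lines, 0.40, passed in both settings (0.0371 and 0.00851), ranging from 0.32 to 0.48. In a fit of the HKI1105 arrays alone, the change of HRGP-Ma at recovery, 0.36, no longer passed (0.0936), and that of HRGP-Mx, 0.21, did (0.00915). With an array left out, the first lay between 0.34 and 0.38, and grp3 from moderate to severe stress in V-372 between -0.83 and -0.67. The cause of these changes was not tested, except that the raised floor reduces, and leaving out the control arrays removes, the spread of grp3 in the HKI1105 control.

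At the methods' threshold (p at most 0.001 with a fold of at least 5) the calls over all probe sets became 387 and 375 in HKI1105, 1381 and 1443 in V-372 and 1574 and 1227 for the interactions, in place of 5539, 5472, 8119, 8753, 7458 and 7229. Same-numbered arrays showed little shared deviation (28 pairs of groups, r between -0.184 and 0.233, 3 over 0.1). These correlations cannot exclude a pairing by number, and the main fit used none. A replicate block gave 5398, 5349, 8023, 8684, 7319 and 7101 calls, with an adjusted p of 0.011 for grp3 from moderate to severe stress in V-372, and changed no call of a member. The 40 untested differences kept their sign in all 760 repeats. Levels at the floor have no order among themselves, and folds against them are lower bounds.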

Other observations

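The Affymetrix transcript cluster that holds HRGP-Ma and HRGP-Mx has 5 more probe sets with no gene named for them, which were looked at after the members' values had been seen. One x-type probe set read 2.39 on both HKI1105 control arrays, 10.34 to 11.44 on the other 6 arrays of HKI1105 and 2.03 to 3.31 in V-372, a profile like that of HRGP-Ma. A second x-type probe set read at most 5.24 on those 6 arrays and 2.01 to 2.02 elsewhere. Another probe set, with no x, lay between 10.54 and 11.86 on all 16 arrays, including the HKI1105 control at 10.92 ± 0.026 (SD, n = 2), where every HRGP member was under the floor limit. The last 2 stayed between 2.01 and 2.03.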
